A study of Mus musculus with 6 samples.

Results

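Smooth muscle contractile genes code for the proteins that build and drive the contractile filaments of smooth muscle. The 10 genes described here (Acta2, Actg2, Tagln, Cnn1, Lmod1, Myh11, Myl9, Mylk, Smtn and Des) were taken by symbol from the RNA-seq table, where each has 1 of the 19730 rows. They were chosen by name and not by a rule on their values, although earlier results of these data were known. RNA was sequenced from mouse primary mesangial cells, the cells that hold the capillary loops of the kidney glomerulus together, in 3 Control libraries and 3 libraries from cells given TGF-β1 at 10 ng/ml for 72 h. TGF-β1 (transforming growth factor beta 1) is a secreted signaling protein with a known role in scarring. The cells of both groups were described as grown at passages 3 to 6 in medium with 25.5 mM glucose and 20% serum. It was not stated whether the 3 libraries of a group came from separate cultures, so p-values measure the spread between these libraries, which may be technical. Expression is given as FPKM, the fragments of a transcript per kilobase of its length and per M (mega) fragments mapped, as the authors estimated it.

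In smooth muscle, actin filaments decorated with calponin and transgelin slide along filaments of smooth muscle myosin. Contraction starts when calcium and calmodulin activate myosin light chain kinase, which phosphorylates the regulatory light chain of myosin. The genes of this machinery are known targets of serum response factor (SRF), which binds a short DNA element called the CArG box and works with the cofactors myocardin and MRTF. Cultured mesangial cells and myofibroblasts are known for taking on part of this program, with smooth muscle actin as its usual marker.

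Of the 10 genes, 6 were upregulated in the TGF-β1-treated cells (Acta2, Actg2, Tagln, Cnn1, Lmod1 and Myl9), with mean FPKM 3.2 to 9.48 times the Control mean. Mylk was downregulated to 8.87% of its Control level. Its row and that of Smtn name non-coding transcripts, so their values may not stand for the coding ones. Smtn was measured at high levels in both groups and did not pass the test, and Myh11 and Des were near 0 in every library. Values were compared with limma on log2(FPKM + 1), with Benjamini-Hochberg adjustment over the 11898 rows whose mean was at least 1 FPKM, and a gene was called at an adjusted p under 0.05. The mean of Myh11 and of Des was under that filter, so 8 of the 10 were tested. Among all tested rows 48.1% were called, 24.5% higher and 23.6% lower. Rows called higher with a log2 change of FPKM + 1 of at least 1 were 6.56%. All 6 upregulated genes had a log2 change of at least 1 on that scale. In these 6 genes every TGF-β1 library was above every Control library, which held for 29.9% of all tested rows. The median log2 change was 1.85 over the 8 tested genes and -0.02 over all tested rows. Cnn1 ranked 37th by log2 change among the called increases and Mylk 52nd among the called decreases.

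**Figure D1:**
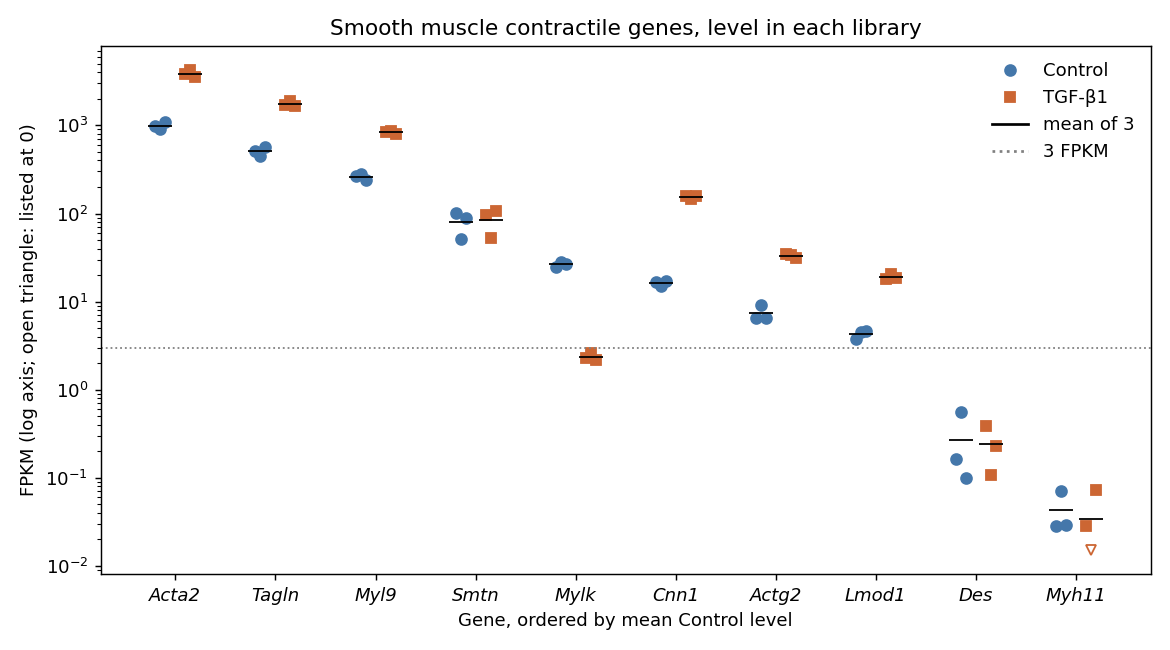
FPKM of the 10 smooth muscle contractile genes in each library (log axis, genes in order of mean Control level), with Control as circles, TGF-β1 as squares, the mean of 3 libraries as a bar, a dotted line at 3 FPKM and an open triangle for a library listed at 0. For 6 genes the squares lie above all circles, for Mylk they lie below all circles (2.18 to 2.60 against 24.5 to 28.2 FPKM), and for Smtn, Des and Myh11 the groups overlap. The Mylk and Smtn rows name non-coding transcripts.

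The 6 libraries were close in depth. In genes with a single coding transcript the low FPKM values were whole multiples of 1 fragment (within 0.1 fragment) for at least 99.4% of values, which gave 10.1 to 11.1 M fragments per library under an assumed fragment length of 200 nt. In 186 of the 11898 tested rows both replicate 2 libraries were at least 1.5 times lower than each other library. The same count was not made for the other replicate numbers, so it does not show that replicate 2 stands apart. The labelled cell type was checked against its markers, some of them given here and the others further on. Pdgfrb, the receptor that marks mesangial cells and pericytes, was at 32.0 to 41.1 FPKM in Control and 28.4 to 29.9 FPKM in TGF-β1, whereas Itga8 and Thy1 did not exceed 0.174 and 0.18 FPKM in any library. The renal tubule genes Pax8, Cdh16 and Cldn2 were at no less than 108, 114 and 32.0 FPKM in any Control library, and all 3 were called lower in TGF-β1 (means of 120 and 27.1, 129.7 and 6.30, and 32.5 and 0.579 FPKM). The summed FPKM of the 7 epithelial markers in the table was 254.3 to 317.3 in Control and 34.7 to 39.6 in TGF-β1, with Cdh1 and Krt8 at or under 0.173 FPKM in every library. Not all of them were lower: Krt18 (0.279 and 1.57 FPKM, adjusted p = 0.00143 by limma) and Krt19 (0.156 and 1.07 FPKM, adjusted p = 0.00563 by limma) were under the filter and were called higher in the fit without it. The part of this in the changes described here was not tested, and in bulk samples a change in the share of a cell type and a change in RNA per cell cannot be told apart.

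The sequences around the start sites of 3 of the upregulated genes are shown because they hold a CArG box or a near match, the element through which SRF is known to act. A CArG box was searched by its usual definition on both strands, from 250 bases before to 50 bases after the start of each row's transcript in mouse build NCBIM37 (mm9). A CArG-like match was the same element with 1 C or G in its A/T core, so a given match falls under 1 of the 2 only. Of 15987 promoters 1.35% held a CArG box, among them those of Actg2 with 2 and Myl9 with 1. A CArG-like match was in 7.79% of promoters, with 2 in Acta2 and 1 in Myl9. Capitals mark the matches, and all 3 are read 5′ to 3′ in the direction of the gene:
Acta2 (chr19:34329863-34329972, minus strand, CArG-like): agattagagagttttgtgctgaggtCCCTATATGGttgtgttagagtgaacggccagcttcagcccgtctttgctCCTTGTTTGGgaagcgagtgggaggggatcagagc
Actg2 (chr6:83486256-83486352, minus strand, CArG box): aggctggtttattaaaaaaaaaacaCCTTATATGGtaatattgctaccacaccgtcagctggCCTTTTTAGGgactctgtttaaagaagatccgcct
Myl9 (chr2:156601014-156601135, plus strand, CArG box then CArG-like): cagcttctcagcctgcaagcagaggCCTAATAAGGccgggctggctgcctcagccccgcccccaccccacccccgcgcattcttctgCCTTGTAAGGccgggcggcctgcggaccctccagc

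The matches began 121 and 71 bases before the start site in Acta2, 68 and 31 bases before it in Actg2, and 117 and 55 bases before it in Myl9. Cnn1 and Lmod1, which were also upregulated, and Mylk, Smtn, Myh11 and Des had neither form in this window, which says only that these letters are not there. For Mylk and Smtn the window was set by the start of a non-coding transcript. That of Smtn starts at 3439255, inside the gene, whose 5′ end is at 3440615. Among the 2796 promoters of genes called higher 1.54% held a CArG box and 6.9% a CArG-like match, against 1.35% and 7.79% of all promoters. The letters CATTCC, the core of the element bound by TEAD factors, were found on either strand in 12.6% of promoters and in those of Acta2, Lmod1, Mylk and Myh11. The letters CAGAC, known as a SMAD-binding motif, were found in 48.0% of promoters and in 7 of the 10 genes. None of these motifs overlapped another in the 10 windows. A match is a description of the sequence and not a bound site.

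Acta2, which codes for smooth muscle α-actin, lies on chromosome 19 (34315580 to 34329826, minus strand, mm9) and has 1 annotated transcript. Control libraries measured 988, 912 and 1091 FPKM, and TGF-β1 libraries 3805, 4268 and 3587 FPKM. Even the lowest treated library was more than 3 times the highest Control library. The mean rose from 997 ± 89.7 to 3887 ± 348 FPKM (SD, n = 3 each), a 3.9-fold change (log2 change 1.96, 95% interval 1.66 to 2.26, adjusted p = 8.64e-05 by limma). These values rest on 15936 to 18608 fragments in Control and 61397 to 68400 fragments in TGF-β1. Among the 15913 coding rows of at least 300 nt, Acta2 moved from rank 82 to rank 16 by mean FPKM.

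Actg2 codes for smooth muscle γ-actin, the actin typical of gut and other visceral muscle, and lies on chromosome 6 (83462899 to 83486259, minus strand). It was at 6.54, 9.17 and 6.48 FPKM in Control and 34.3, 34.2 and 31.1 FPKM in TGF-β1. The groups were well apart, although the level remained far under that of Acta2. The mean changed 4.49-fold from 7.39 ± 1.53 to 33.2 ± 1.80 FPKM (log2 change 2.04, adjusted p = 0.000113 by limma).

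The 2 cytoplasmic actins rose as well. Actb was at 2458 ± 102 FPKM in Control and 4708 ± 605 FPKM in TGF-β1 (log2 change 0.93, adjusted p = 0.00221 by limma), and Actg1 was at 617 ± 111 and 1677 ± 47.9 FPKM (log2 change 1.46, adjusted p = 0.000509 by limma). The 5 actins in the table summed to 4080 ± 300 FPKM in Control and 10300 ± 891 FPKM in TGF-β1. Of this sum, the share of the smooth muscle actins Acta2 and Actg2 was 24.4%, 24.4% and 25.1% in the Control libraries and 39.7%, 38.0% and 36.5% in the TGF-β1 libraries. The shares did not overlap. Their exact permutation p was 0.1, the smallest that 3 against 3 allows, and 0.129 after adjustment over 9 gene families. Actb was at 60.3% of the sum in Control and 45.6% in TGF-β1, and Actg1 at 15% and 16.3%. Cardiac actin, Actc1, was at 0.0707 to 1.21 FPKM in Control and was listed at 0 in every TGF-β1 library. It was under the filter and was not called in the fit without it (adjusted p = 0.113 by limma).

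Because actin genes are alike, the last 60 coding bases are shown to illustrate how far reads can tell them apart, with capitals for bases that differ from Acta2:
Acta2: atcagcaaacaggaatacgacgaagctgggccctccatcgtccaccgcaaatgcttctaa
Actg2: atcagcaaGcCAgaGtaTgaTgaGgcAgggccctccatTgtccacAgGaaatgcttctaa
Actb: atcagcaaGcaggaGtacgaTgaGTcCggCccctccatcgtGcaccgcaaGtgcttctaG
Actg1: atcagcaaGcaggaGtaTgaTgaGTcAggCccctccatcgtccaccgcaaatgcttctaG

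Actg2 differed from Acta2 at 11 of these 60 bases, Actb at 10 and Actg1 at 9. Over the whole coding sequence the identity to Acta2 was 84.2% for Actg2, 82.8% for Actb and 81.5% for Actg1. Only 0.404% of the 50-base windows of the Acta2 transcript occurred unchanged in another actin, and none of those of Actg2 did.

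Tagln codes for transgelin (SM22α), an actin-bundling protein of the calponin family (chromosome 9, 45737711 to 45744141, minus strand). Its FPKM was 514, 451 and 570 in Control and 1687, 1914 and 1667 in TGF-β1. The groups lay far apart, and the mean rose 3.43-fold from 512 ± 59.7 to 1756 ± 137 FPKM (log2 change 1.78, adjusted p = 0.00012 by limma). Tagln2, the widely expressed form, rose from 206 ± 9.40 to 575 ± 57.6 FPKM (log2 change 1.48, adjusted p = 0.000113 by limma). Transgelin made up 71.1% ± 3.21 of its family in Control and 75.3% ± 0.404 in TGF-β1, a difference of 4.21 percentage points (exact permutation p = 0.1). The difference was 2.68 percentage points without Control replicate 2. The gene overlaps Pcsk7 on the opposite strand, and it was not stated whether the counting used strand.

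Cnn1 codes for basic calponin, an actin-binding protein that inhibits the myosin ATPase and is taken as a marker of differentiated smooth muscle (chromosome 9, 21903725 to 21914074, plus strand). It was at 16.6, 14.9 and 17.1 FPKM in Control and 157, 147 and 156 FPKM in TGF-β1. The groups were far apart, and this was the largest increase and the smallest standard error of the 8 tested genes. The mean rose 9.48-fold from 16.2 ± 1.16 to 153.6 ± 5.60 FPKM (log2 change 3.17, 95% interval 2.97 to 3.37, adjusted p = 4.68e-06 by limma), on 357 to 400 fragments in Control and 3232 to 3741 in TGF-β1. The other calponins were more abundant and rose less, with Cnn2 at 194 and 377 FPKM and Cnn3 at 175 and 487 FPKM in Control and TGF-β1 (log2 changes 0.96 and 1.47). Cnn1 made up 4.2% ± 0.294 of the family in Control and 15.1% ± 0.149 in TGF-β1, and Cnn2 50.3% and 37.0% (exact permutation p = 0.1 for Cnn1).

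Lmod1 codes for leiomodin 1, which nucleates actin filaments in smooth muscle (chromosome 1, 137221384 to 137264642, plus strand). It was at 3.77, 4.48 and 4.604 FPKM in Control and 17.9, 20.3 and 18.7 FPKM in TGF-β1. No Control library came near a treated one, and the mean rose 4.43-fold from 4.29 ± 0.447 to 19.0 ± 1.19 FPKM (log2 change 1.92, adjusted p = 4.13e-05 by limma). The related tropomodulins cap the pointed ends of actin filaments and moved in different directions. Tmod3 rose from 18.5 to 33.5 FPKM (log2 change 0.82, adjusted p = 0.000371 by limma) and Tmod1 fell from 21.0 to 14.3 FPKM (log2 change -0.50, adjusted p = 0.0327 by limma), whereas Tmod2 was at 1.79 and 1.68 FPKM and was not called. The call of Tmod1 was lost in 7 of 17 alternative fits, among them those without any 1 library except Control replicate 3 (adjusted p up to 0.135 by limma). Leiomodin 1 accounted for 9.4% ± 1.46 of this family in Control and 27.6% ± 0.584 in TGF-β1, and Tmod1 for 45.5% and 20.9%.

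**Figure D2:**
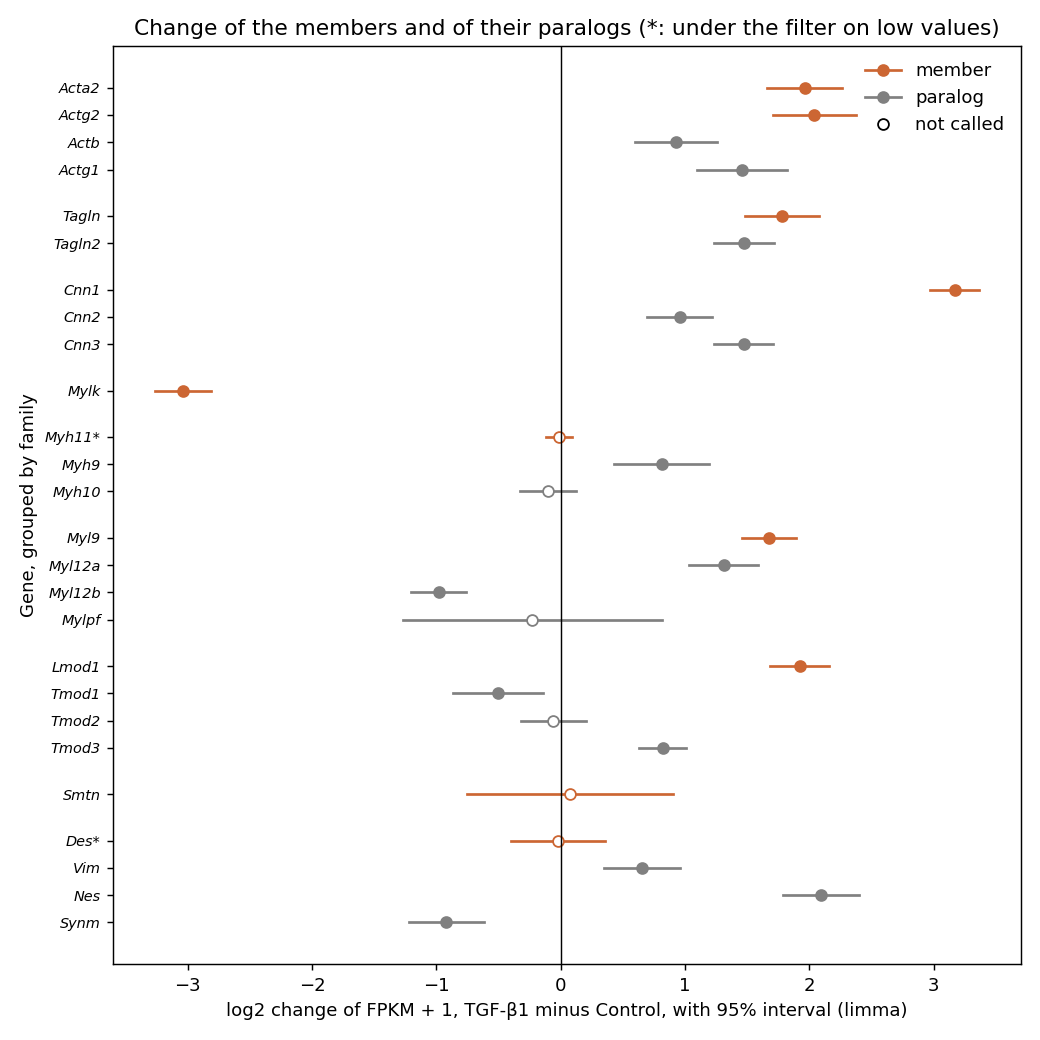
The log2 change of FPKM + 1, TGF-β1 minus Control, with its 95% interval from limma for the 10 contractile genes and their tested paralogs, grouped by family, with open symbols for genes not called and an asterisk for genes under the filter on low values. Cnn1 (3.17) and Mylk (-3.04) lie farthest from 0, and the paralogs Actb, Actg1, Tagln2, Cnn2, Cnn3, Myl12a and Tmod3 lie to the right of 0 but left of the upregulated gene of their family. The Mylk and Smtn rows name non-coding transcripts, and the pseudocount narrows the intervals of Myh11 and Des.

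Myl9 codes for the regulatory light chain of smooth muscle myosin, the protein that myosin light chain kinase phosphorylates (chromosome 2, 156601156 to 156607394, plus strand). It was at 265, 279 and 242 FPKM in Control and 845, 861 and 808 FPKM in TGF-β1. The treated libraries lay close together and well above Control, with a 3.2-fold change of the mean from 262 ± 18.5 to 838 ± 26.8 FPKM (log2 change 1.67, adjusted p = 4.73e-05 by limma). The light chains of non-muscle myosin went opposite ways. Myl12a rose from 700 ± 55.1 to 1739 ± 163 FPKM (log2 change 1.31, adjusted p = 0.000278 by limma), and Myl12b fell from 356 ± 25.3 to 180 ± 11.1 FPKM (log2 change -0.98, adjusted p = 0.000356 by limma). These neighboring genes are close copies, and 10.2% of the 50-base windows of the Myl12a transcript also occurred in a transcript of Myl12b, so reads from that part are uncertain. None of the 1204 windows of the Myl12b transcript named in the table occurred in Myl12a. Myl9 took 19.8% ± 1.03 of the regulatory light chains in Control and 30.4% ± 1.33 in TGF-β1, and Myl12b 27.0% and 6.52%.

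Myh11, the smooth muscle myosin heavy chain and a specific marker of mature smooth muscle (chromosome 16, 14194620 to 14291501, minus strand), was at 0.0283, 0.0709 and 0.029 FPKM in Control and 0.0285, 0 and 0.0723 FPKM in TGF-β1. These values correspond to 2, 5 and 2 fragments and 2, 0 and 5 fragments, in all 9 against 7. At this depth no difference was detectable (log2 change -0.01, 95% interval -0.12 to 0.09, adjusted p = 0.844 by limma in the fit without the filter). At values this far under the pseudocount of 1 FPKM, the log2 change and its interval are pulled towards 0. The interval therefore does not bound the fold change. The myosin heavy chains present were the non-muscle forms. Myh9 rose from 160.5 ± 21.8 to 283 ± 43.9 FPKM (log2 change 0.81, adjusted p = 0.00669 by limma), and Myh10 was at 65.9 ± 1.51 and 61.5 ± 6.26 FPKM (adjusted p = 0.398 by limma). Myh11 held 0.0184% of the summed myosin II heavy chains in Control and 0.00914% in TGF-β1, with Myh9 at 70.5% and 81.7%.

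**Figure D3:**
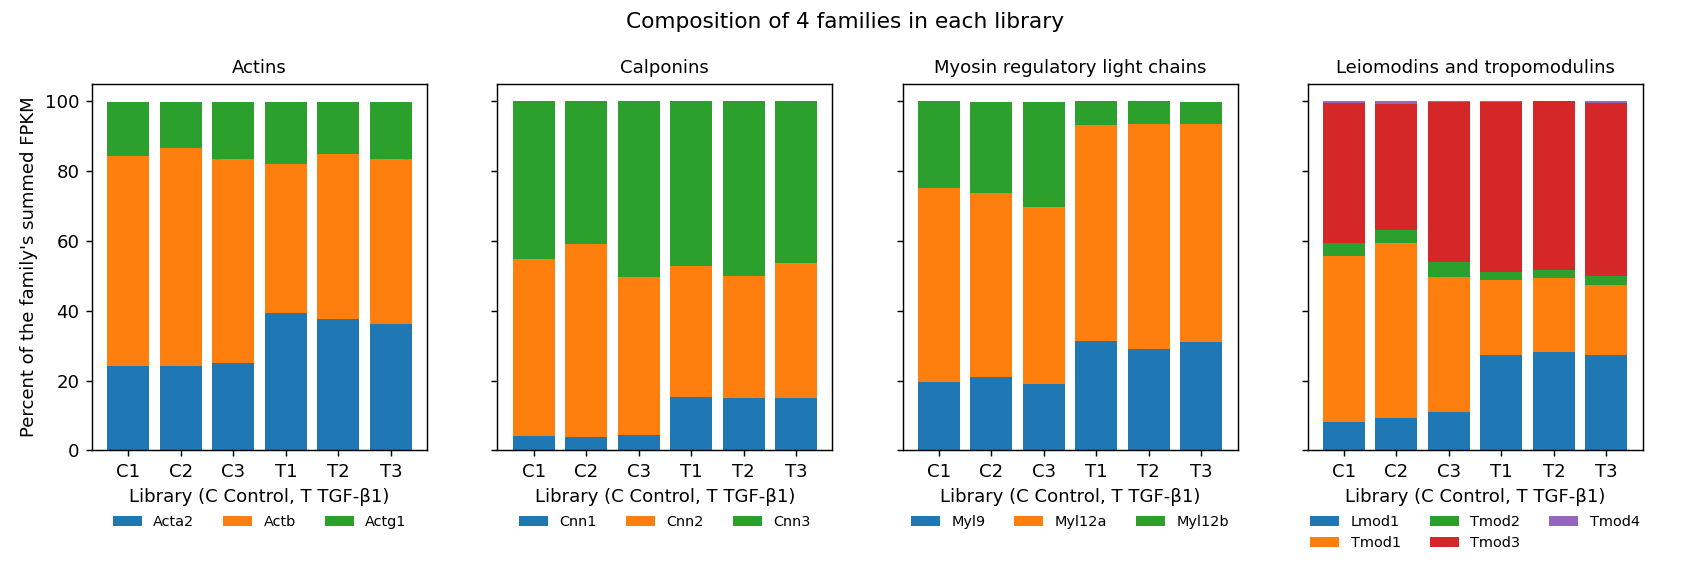
Percent of the summed FPKM of 4 families (actins, calponins, myosin regulatory light chains, and leiomodins with tropomodulins) taken by each gene in each library, as stacked bars for Control (C1 to C3) and TGF-β1 (T1 to T3), genes with very small shares left out. The lowest segment is the smooth muscle gene, and it is taller in all 3 TGF-β1 libraries of each family, for example 14.9% to 15.2% for Cnn1 against 3.92% to 4.5% in Control.

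Mylk, the kinase that turns on smooth muscle myosin, was the only one of the 8 tested genes called lower (chromosome 16, 34745296 to 35002520, plus strand). It was at 24.5, 28.2 and 26.6 FPKM in Control and 2.26, 2.60 and 2.18 FPKM in TGF-β1. Every treated library was under 3 FPKM and far under the lowest Control library. The mean fell from 26.5 ± 1.84 to 2.35 ± 0.220 FPKM (log2 change -3.04, 95% interval -3.26 to -2.81, adjusted p = 8.14e-06 by limma). If the length of the named transcript applies, this rests on 781 to 897 fragments in Control and 68 to 76 in TGF-β1. By level it moved from rank 3224 to rank 9431 of 15913. The other myosin light chain kinase genes stayed at or under 0.426 FPKM in every library, and the family sum was 26.9 FPKM in Control and 2.81 FPKM in TGF-β1. The row of Mylk names a transcript with a retained intron (34745296 to 34877922, 3077 nt), which is 1 of 4 annotated for the gene, and the sources used here do not state whether a row holds the gene or only the named transcript. The value may therefore not stand for the coding transcripts. Among genes with several transcripts, the 1292 rows that name a non-coding transcript of a coding gene had a median of 8.43 FPKM and the 10089 rows that name a coding one had a median of 7.68 FPKM.

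Smtn codes for smoothelin, a cytoskeletal protein of contractile smooth muscle (chromosome 11, 3417526 to 3440615, minus strand). It was at 100.1, 51.7 and 88.6 FPKM in Control and 96.0, 52.9 and 105.5 FPKM in TGF-β1. The groups overlapped, and the replicate 2 library was lowest in each. Replicate 2 was at 0.548 times the mean of the other libraries in Control and 0.525 times in TGF-β1, so the spread within groups was wide (80.1 ± 25.3 and 84.8 ± 28.0 FPKM). The log2 change was 0.07 with a 95% interval from -0.75 to 0.90 (adjusted p = 0.875 by limma). Changes inside that interval cannot be told from 0 in this fit, which does not use the replicate number. With a replicate block or replicate 2 as a batch term, Smtn was also not called (adjusted p = 0.565 and 0.504 by limma). In replicates 1 and 3 the means were 94.3 and 100.8 FPKM. The row of Smtn also names a non-coding transcript, 1 of 12 for the gene, with the same limit as for Mylk, and 2 annotated genes overlap it on the opposite strand. Smtnl2, a smoothelin-like gene, was under the filter at 1.85 ± 0.241 FPKM in Control and 0.151 ± 0.101 FPKM in TGF-β1 (adjusted p = 0.000498 by limma in the fit without the filter).

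Des codes for desmin, the intermediate filament protein of muscle and a usual marker of mesangial cells (chromosome 1, 75356904 to 75365154, plus strand). It was at 0.162, 0.550 and 0.0995 FPKM in Control and 0.391, 0.106 and 0.231 FPKM in TGF-β1. The groups overlapped, with 25 fragments in all in Control and 22 in TGF-β1 (log2 change -0.02, 95% interval -0.40 to 0.36, adjusted p = 0.939 by limma in the fit without the filter). As for Myh11, the pseudocount pulls this interval towards 0, and it does not bound the fold change. Vim, the filament gene of mesenchymal cells, held 98.8% of its family in Control and 96.9% in TGF-β1 and rose from 2191 ± 238 to 3436 ± 175 FPKM (log2 change 0.65, adjusted p = 0.00696 by limma). Nes, which codes for nestin, rose from 24.9 ± 4.23 to 109 ± 2.83 FPKM (log2 change 2.09, adjusted p = 7.44e-05 by limma), and Synm, which codes for synemin, fell from 1.64 to 0.398 FPKM (log2 change -0.92, adjusted p = 0.00165 by limma). At these levels the pseudocount understates the fall of Synm, and its log2 change was -1.82 to -0.64 in the alternative fits.

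**Figure D4:**
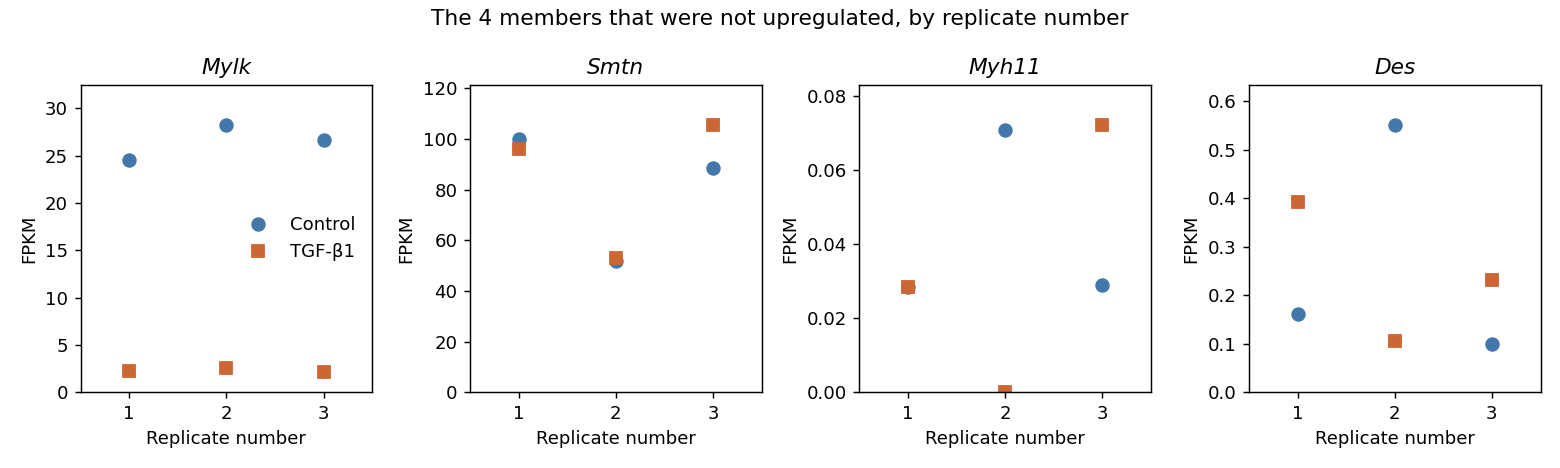
FPKM of Mylk, Smtn, Myh11 and Des by replicate number (each panel with its own linear axis from 0), Control as circles and TGF-β1 as squares. Mylk was lower in all 3 TGF-β1 libraries, Smtn was lowest in replicate 2 of both groups (51.7 and 52.9 FPKM), and Myh11 and Des showed no separation at levels up to 0.0723 and 0.550 FPKM. The Mylk and Smtn rows name non-coding transcripts.

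Across the 9 families, the share of the smooth muscle gene was higher in every TGF-β1 library for actins, transgelins, calponins, regulatory light chains, leiomodins and smoothelins, and lower for the myosin light chain kinases. For these 7 families the exact permutation p was 0.1, and 0.129 adjusted over the 9. The share of Mylk was 98.3% in Control and 83.5% in TGF-β1. Its paralogs stayed at or under 0.426 FPKM and were not called in the fit without the filter, so that share does not show a rise of other kinases. The share of Smtn was 97.6% in Control and 99.8% in TGF-β1, although Smtn itself was not called (log2 change 0.07). Its paralog Smtnl2, under the filter, was at 1.85 and 0.151 FPKM. For Myh11 and Des the shares overlapped between groups (exact permutation p = 0.4 and 0.6). Over the paralogs, 16 of the 34 in the table were tested, of which 10 were higher, 3 lower and 3 not called, with a median log2 change of 0.82 (24.5% and 23.6% of all tested rows were called higher and lower).

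The order of the levels among the 10 genes, per length, was Acta2, Tagln, Myl9, Smtn, Mylk, Cnn1, Actg2, Lmod1, Des and Myh11 in Control. In TGF-β1 Cnn1 stood above Smtn and Mylk fell below Lmod1. In Control the values of Smtn and Mylk did not overlap, and neither did those of Mylk and Cnn1, of Cnn1 and Actg2 or of Actg2 and Lmod1. In both groups Des lay above Myh11 without overlap.

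Most other genes of the contractile apparatus were called higher, as were the 6 upregulated genes, against 24.5% of all tested rows called higher and 23.6% called lower. The table held 26, of which 23 were tested, 19 were higher, 2 lower (Fhl2 and Pgm5) and 2 not called (Myl6 and Mustn1), with a median log2 change of 1.13. The call of Fhl2 was lost in 6 of 17 alternative fits, those with the replicate block (adjusted p = 0.0516 by limma) and without Control replicate 1 or any TGF-β1 library among them, and Myl6 was called higher in 2 of the 17. The largest changes were in Csrp2 and Pdlim7, both LIM domain proteins, and in Tpm1, which codes for α-tropomyosin. Tpm1 was at 1122, 1092 and 1017 FPKM in Control and 3824, 4401 and 3681 FPKM in TGF-β1 (log2 change 1.88, adjusted p = 8.09e-05 by limma). Csrp2 was at 148, 113 and 181 FPKM in Control and 742, 350 and 736 FPKM in TGF-β1 (log2 change 1.98, adjusted p = 0.00384 by limma). Its TGF-β1 replicate 2 value was the lowest of the treated libraries, as was that of Pdlim7 (188 FPKM against 297 and 288 FPKM, log2 change 1.91).

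The genes that set the phosphorylation of Myl9 through calcium and RhoA had calls in both directions. The table held 24 of them, of which 15 were tested, with 4 higher, 2 lower and 9 not called, beside 24.5% higher and 23.6% lower over all tested rows. Their median log2 change was 0.10. Itpr1, a calcium release channel, fell from 10.4 to 4.55 FPKM (log2 change -1.04, adjusted p = 0.000369 by limma), and Pde5a, which breaks down cyclic GMP, fell from 8.59 to 2.21 FPKM (log2 change -1.57, adjusted p = 0.000247 by limma). Rhoa, Rock2 and the myosin phosphatase catalytic subunit gene Ppp1cb were among the genes called higher.

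Of the genes for SRF, its cofactors and other regulators, 14 of the 17 in the table were tested, with 3 higher, 5 lower and 6 not called (median log2 change -0.14). Over all tested rows 24.5% were called higher and 23.6% lower. Without TGF-β1 replicate 1 the number called was 5 in place of 8. Srf itself was at 10.7, 10.1 and 13.01 FPKM in Control and 18.7, 13.5 and 18.6 FPKM in TGF-β1 (log2 change 0.54, adjusted p = 0.0298 by limma). That call was lost without Control replicate 1 or 2 or TGF-β1 replicate 1 or 3, at adjusted p of up to 0.0989 by limma. The groups did not overlap, although the replicate 2 library of TGF-β1 was close to the highest Control library. Myocd, the gene of myocardin, was listed at 0 in 5 of the 6 libraries and at 0.0778 FPKM in Control replicate 3. The MRTF genes Mkl1 and Mkl2 were not called, with means of 21.8 and 21.5 FPKM and of 4.25 and 3.69 FPKM (log2 changes -0.03 and -0.17, adjusted p = 0.892 and 0.322 by limma). The largest changes in this list were the decreases of Ablim1, an actin-binding LIM protein (11.7 to 2.48 FPKM), and of the homeobox gene Prrx1 (2.84 to 0.451 FPKM), and the increase of the ETS factor gene Elk3 (27.5 to 51.6 FPKM).

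Over the 6 libraries, the genes outside these lists whose log2(FPKM + 1) followed the mean standardised profile of the 8 tested genes most closely were Whrn, Zswim6, Mdfic, Kif3b and Srp19 (Pearson's r of 0.9994 to 0.9978). With 2 groups that are far apart a high r is common, and 1288 of the 11809 rows compared had an r over 0.95. Whrn changed most of these 5, from 3.72 to 21.3 FPKM, and Kif3b least, from 7.46 to 10.5 FPKM.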

How the data were processed

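The 3 Control and 3 TGF-β1 RNA-seq libraries were grouped by their treatment label. The authors' pipeline was a read quality filter, TopHat alignment to mm9 (TopHat2 2.0.11 in the submitters' processing notes) and Cufflinks. The deposited values are FPKM with no stated scaling between libraries. The authors called genes expressed at 3 FPKM or more. Their count model could not be repeated on FPKM, so limma 3.58.1 (R 4.3.3, lmFit and eBayes with a trend, two-sided) was run on log2(FPKM + 1) over rows with a mean of at least 1 FPKM, after it was tested on simulated data. The pseudocount understates the change of low genes such as Mylk, Lmod1 and Synm. For Myh11 and Des it also narrows the interval. Intervals are at the 95% level. Family shares are percentages of the summed FPKM of a gene family within a library, compared with a two-sided exact permutation test (scipy 1.17.1). Fragment numbers were recovered from FPKM with the length of each row's named transcript and cover counting error only. Gene positions came from the GENCODE M1 annotation of mm9, in which 19699 of 19730 rows were found by transcript, and start-site sequence from the NCBIM37 genome.

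All 10 members were named, with the tested paralogs, the 3 largest changes of each other list, Srf, Myocd, Mkl1 and Mkl2, and the 5 rows most like the members. Of these, 1 gene under this rule and 1 start-site sequence are not reported here. Actc1, Smtnl2, Rhoa, Rock2, Ppp1cb, the genes called lower or not called in the apparatus list and the cell type markers were named in addition. The members and lists were chosen with earlier results of these data known. Alternatives covered the pseudocount, the filter, scaling, the trend, a replicate block, the replicate 2 libraries as a batch term or left out, and each library left out.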

Additional observations from a re-analysis of the deposited data

How the results depend on the processing

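The 7 called members kept their direction and their call in all 17 alternatives, with log2 changes of 1.83 to 2.04 for Acta2, 3.06 to 3.24 for Cnn1 and -3.44 to -2.96 for Mylk. Smtn was not called in any, at -0.21 to 0.38 (adjusted p = 0.341 to 0.979 by limma). The number of genes called over all tested rows was 5721, and 4195 with replicates 1 and 3 only to 6026 with no filter. Replicate numbers were shared between groups. Same-numbered libraries correlated at 0.0921, 0.2317 and 0.0853 in their deviations from the group means, and differently numbered ones at -0.1939 to 0.1171. Whether same-numbered libraries were paired was not stated, and the main fit did not use the number. With the replicate block 5391 genes and the same number of members (7) were called, and it ended the calls of Fhl2 and Pdgfrb. The fits that left out 1 library gave 4419 to 5446 genes. For SRF and its regulators they gave 5 to 7 genes, against 8 with all libraries. With replicates 1 and 3 only, the difference in the share of Myh11 was 0.000526 percentage points (-0.00929 with all libraries), reversing its sign at 5 fragments or fewer per library. That of Des, -0.0063 with all libraries, was 0.00307 then and 0.00125 without Control replicate 2, and that of Myl9 with replicates 1 and 3 only was 11.9 (10.6 with all libraries). Upper-quartile scaling shifted the median of all genes to -0.07. Depth limits Myh11 and Des, and 3 libraries a group limit the exact tests to p = 0.1.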

Other observations

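Markers of other cell types were also measured in these libraries. The 5 macrophage markers in the table summed to 86.98 to 113.7 FPKM in Control and 9.03 to 11.3 FPKM in TGF-β1, most of it Cd14 (94.3 and 7.71 FPKM). Of the defining markers, Ptprc and Lyz2 did not exceed 0.0811 FPKM, and Csf1r was at 5.52 to 7.38 FPKM in Control and 0.234 to 0.525 FPKM in TGF-β1 (adjusted p = 8.56e-05 by limma). Cd68 was at 2.79 and 2.22 FPKM and was not called. The 9 striated muscle markers summed to 15.5 to 18.8 FPKM in Control and 3.14 to 4.42 FPKM in TGF-β1, mostly from Tnnt3 (14.96 and 2.93 FPKM), with Myog and Ckm listed at 0 in 5 of the 6 libraries each. The 5 endothelial markers summed to at most 0.822 FPKM in any library. The 4 podocyte markers summed to 13.8 to 15.4 FPKM in Control and 8.51 to 10.1 FPKM in TGF-β1. The 8 mesangial and pericyte markers summed to 53.1 to 63.4 FPKM in Control and 109.3 to 120.3 FPKM in TGF-β1, with Mcam rising from 16.1 to 77.9 FPKM (adjusted p = 1.12e-05 by limma) and Pdgfrb falling from 37.5 to 29.2 FPKM (adjusted p = 0.0396 by limma). The call of Pdgfrb was lost in 9 of 17 alternative fits, with the replicate block (adjusted p = 0.0583 by limma) and without each library except Control replicate 1 among them, and it was at 0.164 by limma in replicates 1 and 3 only. Tbx18 (means of 4.29 in Control and 4.59 FPKM in TGF-β1) and Gata3 (1.76 and 1.03 FPKM) were not called. Cspg4 (0.0735 and 1.21 FPKM) and Rgs5 (0.0864 and 0.250 FPKM) were under the filter. In the fit without it both were called higher (adjusted p = 0.000951 and 0.0336 by limma). The part of these markers in the changes of the contractile genes was not tested.

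Under the filter on low values, the potassium channel subunit gene Kcnmb1, known from smooth muscle, was at 0.0227, 0 and 0.0465 FPKM in Control and 0.822, 0.767 and 0.926 FPKM in TGF-β1 (adjusted p = 0.000309 by limma in the fit without the filter). This gene was picked after its values were seen.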
